A study of Caenorhabditis elegans with 5 samples.

Results

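The homeobox genes of C. elegans were examined for binding of ATTF-4, an AT-hook protein, by ChIP-seq peaks in whole L4 larvae. The set was taken by name from the gene annotation and used no measured value. It held the 63 protein-coding genes named ceh (C. elegans homeobox) and 13 homeobox genes with names of their own, which were lin-39, mab-5, egl-5, php-3, nob-1, vab-7, unc-4, unc-42, unc-86, mec-3, ttx-3, pal-1 and cog-1. These 76 genes stood among 19985 protein-coding genes. The coding exons of 53 of the 76 encoded Trp-Phe-any-Asn-any-Arg, a pattern of the helix with which homeodomains contact DNA. Genes without it included ceh-38 and the other CUT class genes used here, and ceh-30 and ceh-31. Its share over all protein-coding genes was not computed, so the pattern does not test the names.

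All samples belonged to 1 group, with no comparison between conditions. The animals were pooled male and female worms of strain OP219 (unc-119(ed3) III; wgIs219), an insertion line that stably expresses C05D10.1 (attf-4) with GFP-FLAG at its C terminus. There were 3 replicates that the labels number as biological, in 5 libraries, with chromatin sheared by sonication. The tagged protein comes from a transgene, and the promoter that drives it is not given in the sources used here. Whole animals were used, so a strong site in few cells and a weak site in many cells cannot be told apart.

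Homeobox genes encode transcription factors that set body position and cell identity. In the worm the Hox genes pattern the body axis, while paired-like, POU and LIM homeobox genes such as unc-42, unc-86 and mec-3 fix the identity of neurons and stay on in the mature cell. Homeodomains themselves recognise short AT-rich sites, and an AT-hook contacts AT-rich DNA in the minor groove.

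The sequences under the strongest homeobox gene peaks are shown because the highest values in the family rest on them. All were read 5′ to 3′ on the strand of the gene from the RefSeq genome of build WBcel235 (ce11). For ceh-38 the upstream part of the peak that entered the final set is given, chrII:6951380-6951525, on the plus strand. The summit lay 14 bp beyond the annotated 5′ end and is outside the printed bases.
ceh-38: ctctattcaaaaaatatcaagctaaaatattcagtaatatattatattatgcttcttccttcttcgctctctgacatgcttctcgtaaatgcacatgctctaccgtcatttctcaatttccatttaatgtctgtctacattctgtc
For ceh-60 the last coding bases up to the summit are given, chrX:6522783-6522858, on the minus strand. The stop codon is in capitals and its last base is the summit.
ceh-60: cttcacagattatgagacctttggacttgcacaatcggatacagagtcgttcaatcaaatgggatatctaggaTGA
For ceh-18 the 151 bases centred on the summit are given, chrX:3844445-3844595, on the minus strand. Capitals mark the codons of the homeodomain helix pattern.
ceh-18: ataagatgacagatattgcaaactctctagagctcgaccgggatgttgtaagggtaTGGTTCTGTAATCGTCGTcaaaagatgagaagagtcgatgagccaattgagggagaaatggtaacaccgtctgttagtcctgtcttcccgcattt
A second ceh-60 summit lay in the intron before the last pair of exons. Its 151 bases, chrX:6523562-6523712 on the minus strand, are given because this was the most AT-rich summit of the family. Capitals mark an AAATTT near the 3′ end of the stretch, which lies more than 50 bp from the summit and is not counted in the motif search described further on.
ceh-60 intron: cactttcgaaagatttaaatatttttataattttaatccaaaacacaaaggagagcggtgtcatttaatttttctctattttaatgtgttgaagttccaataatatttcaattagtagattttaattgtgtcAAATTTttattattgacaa
The 2 strongest peaks among the Hox and other ANTP class genes with 151 bases shown are those of ceh-43, chrIII:4449310-4449460, and nob-1, chrIII:12082308-12082458. Both genes are on the minus strand, and capitals in nob-1 mark GAGAGA repeats on the opposite strand.
ceh-43: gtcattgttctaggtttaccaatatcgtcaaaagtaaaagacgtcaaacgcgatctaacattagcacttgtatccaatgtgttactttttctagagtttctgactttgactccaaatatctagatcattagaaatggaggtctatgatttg
nob-1: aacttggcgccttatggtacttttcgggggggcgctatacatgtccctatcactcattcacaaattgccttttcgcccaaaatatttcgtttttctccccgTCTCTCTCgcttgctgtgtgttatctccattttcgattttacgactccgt

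Peaks came from 3 replicate lists of 30000, 22227 and 30000 entries and a list called on the pooled replicates with 24897 entries. A final set of 173 entries was chosen by the irreproducible discovery rate (IDR), which compares peak ranks between replicates. A place in it does not mean support in every replicate. Of its nuclear peaks, 53.1% had a summit within 100 bp in all 3 replicates. The replicate and pooled lists contain background entries by design. The median −log10 q-value, a measure of evidence in which 0 is none, was 0.144 for pooled peaks and 0.541, 0.579 and 0.213 for replicates 1, 2 and 3. A peak in these lists is therefore a candidate position, and its signal, its rank and its presence in other replicates carry the weight. The signal is the authors' peak caller's own value. A gene's window ran from 1000 bp upstream of its 5′ end to its annotated end, and a peak was counted by its summit. A pooled peak was found in a replicate where a replicate summit lay within 100 bp. Read depth is unknown, and the intervals given for shares of genes are 95% Clopper-Pearson intervals that cover counting error only.

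Homeobox genes held pooled peaks somewhat more often than all genes, in longer windows, and few of those peaks were strong. A pooled peak lay in the window of 53 of 76 members (69.7%, interval 58.1 to 79.8%), beside 57.9% of all nuclear protein-coding genes. A final-set peak lay in 1 window (1.32%, interval 0.0333 to 7.11%), that of ceh-38, beside 0.596%. A pooled peak with the highest q-value level of the list was held by 1 member, again ceh-38, beside 0.866%. The share of all genes lay inside the family's interval for the final set and just below it for pooled peaks. Homeobox windows were also longer, with a median of 4002.5 bp against 3027 bp.

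Support across replicates was near the genome level. A pooled peak found in all 3 replicates lay in the windows of 2 members, ceh-38 and ceh-60 (2.63%, interval 0.32 to 9.18%), beside 2.79% of all genes. The count was 7, 9 and 5 members when replicate 1, 2 or 3 was left out and support in only the other 2 was required. That rule is looser, so the count could not fall under it. A pooled peak found in 2 or 3 replicates lay in 16 windows (21.1%, interval 12.5 to 31.9%), beside 19.8%. Without the pooled list, 28 members (36.8%, interval 26.1 to 48.7%) held some summit in every replicate list, not necessarily at the same place, beside 31.7%. In single lists, a summit lay in the windows of 56 members in replicate 1 (73.7%, beside 64% of all genes). The counts were 45 in replicate 2 (59.2% beside 52.5%) and 54 in replicate 3 (71.1% beside 63.3%).

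Among the 1000 strongest peaks of each replicate the members differed from replicate to replicate. Replicate 1 had 4 members there (5.26%, beside 4.07% of all genes), ceh-60 at rank 320, ceh-88 at 555, ceh-18 at 907 and ceh-32 at 984. Replicate 2 also had 4 (5.26% beside 4.05%), ceh-38 at rank 183, ceh-60 at 412, ceh-24 at 587 and unc-42 at 824. Replicate 3 had 2 (2.63% beside 3.9%), ceh-38 at rank 47 and ceh-43 at 371. Of the 8 members in any of these sets, 2 were in the sets of 2 replicates and 0 in all 3. This overlap was not counted over all genes, so whether it is particular to the family was not tested.

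The signals of the family were mostly low. The strongest pooled peak of a member ranged from 7.11 in ceh-1 to 40.5 in ceh-38, with a median of 9.06 over the 53 members, and the median over all nuclear genes with a pooled peak was 10.4. Of the 53 members, 21 lay above that genome median. A signal above 15 was reached by 4 members, ceh-38, ceh-60, ceh-18 and ceh-8. They made up 7.55% of members with a peak, beside 15.05% of all genes with a peak. No interval was computed for this share. It hangs on the level used, since ceh-43 at 14.7, nob-1 at 14.1, ceh-23 at 13.95 and ceh-6 at 13.8 lay just below it.

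**Figure D1:**
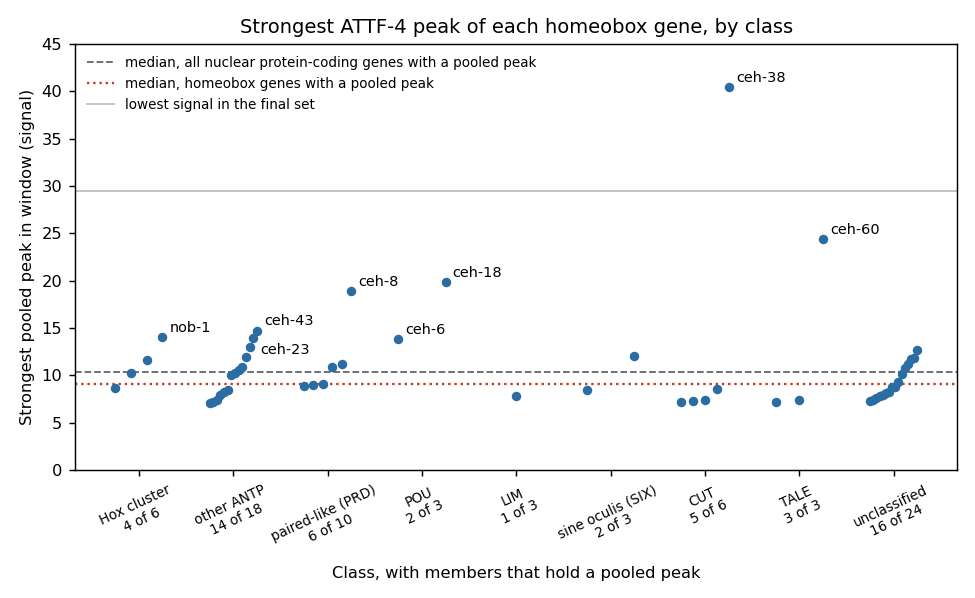
Signal of the strongest pooled peak in the window of each homeobox gene with a pooled peak, by class, where each point is 1 gene and the labels under the axis give how many members of each class hold a pooled peak. Only ceh-38, at 40.5, lies above the lowest signal of the final set (29.4, solid line), and most members lie near or below the median of all nuclear protein-coding genes (10.4, dashed line).

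Window length was compared because a long window meets more peaks. Genes were divided at the quartiles of window length of all nuclear protein-coding genes. In the shortest quartile 5 of 8 homeobox genes (62.5%) held a pooled peak beside 39.7% of all genes, and in the next quartile 11 of 16 (68.8%) did beside 48.9%. In the longer quartiles 14 of 24 (58.3%) did beside 61.2%, and 23 of 28 (82.1%) beside 81.8%. The family's share thus exceeded that of all genes among its 24 members with short windows and stayed close to it among those with long ones. No interval was computed for these small groups. From the shortest quartile to the longest, pooled summits per kb were 0.327, 0.256, 0.224 and 0.234 in the family. Those of all genes were 0.286, 0.263, 0.271 and 0.261. Per kb of window the family had 0.238 pooled summits beside 0.266 for all genes. The same quantity in the replicate lists was 0.269, 0.196 and 0.311 for the family and 0.316, 0.236 and 0.320 for all genes, lower in the family in all 3.

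**Figure D2:**
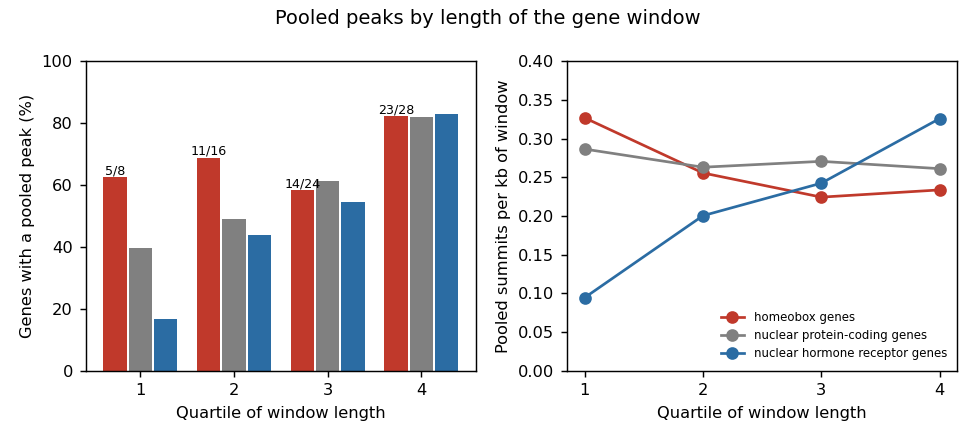
Share of genes with a pooled peak (left, bars, %) and pooled summits per kb of window (right) in 4 quartiles of window length, from shortest (1) to longest (4), for homeobox genes, all nuclear protein-coding genes and nuclear hormone receptor genes. Counts over the red bars give homeobox genes with a peak of those in the quartile, and in the longest quartile 23 of 28 have one.

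The strongest homeobox peak lay at the 5′ end of ceh-38, a CUT class gene of the ONECUT type (chrII:6951526-6955409, plus strand). The final-set peak spanned chrII:6951380-6951699 with its summit in the 5′ UTR, a signal of 40.5, a −log10 q-value of 2.69 and pooled rank 70. It ranked 45 of the 147 nuclear final-set peaks by signal. Its replicate signals were 3.55 at rank 17509 in replicate 1, 9.26 at rank 183 in replicate 2 and 28.5 at rank 47 in replicate 3. Replicates 2 and 3 thus placed it near the top and replicate 1 in the lower part of its list, although all 3 summits lay within 47 bp of the pooled summit.

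Weak support from replicate 1 was not particular to ceh-38 among final-set peaks. Of the 147 nuclear final-set peaks, 83 had their replicate 1 summit among the 1000 strongest of that list and 30 had none. A further 3 had a rank below that of ceh-38. The peak cannot be assigned to ceh-38 alone. The gene malt-1 starts on the opposite strand with 225 bases between the annotated 5′ ends, and the summit lay 240 bp from its start. The ceh-38 window held 2 more pooled summits, 14.6 in the 3′ UTR at 3494 bp from the 5′ end, found in replicate 3, and 12.5 in a coding exon at 2863 bp, found in no replicate.

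The ceh-60 gene, a TALE class gene of the PBX type known for control of yolk protein genes, had the most even support of the family (chrX:6522596-6530146, minus strand). Its strongest summit lay 7363 bp from the 5′ end, on the stop codon and 187 bp before the gene's end, with a signal of 24.4, a −log10 q-value of 2.15 and pooled rank 353. Its replicate signals were 11.7 at rank 320 in replicate 1, 7.85 at rank 412 in replicate 2 and 10.3 at rank 1618 in replicate 3. All 3 replicates placed it in the upper part of their lists, unlike the ceh-38 peak.

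The ceh-60 peak was nevertheless outside the final set, whose lowest signal was 29.4, and 178 nuclear peaks outside the set had a higher signal. Taking the worst rank over the replicates, 36 nuclear pooled peaks did as well as or better than 1618. Of these, 30 were in the final set and 6 were not, ceh-60 among them. The ceh-60 window held 3 further pooled summits, all in introns. The summit printed above, at 6509 bp from the 5′ end, had a signal of 16.5 and replicate ranks of 26943, 1446 and 14699, with a GC content of 22.4% within 100 bp, the lowest at any homeobox summit. The others had signals of 12.9, found in replicate 3, and 7.20, found in replicates 2 and 3.

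**Figure D3:**
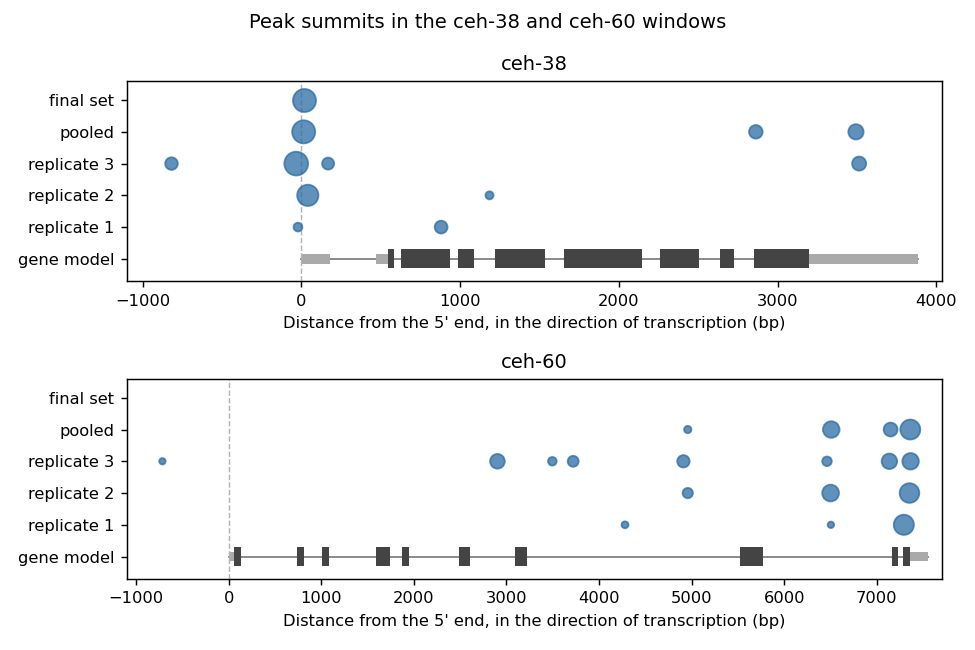
Peak summits in the ceh-38 and ceh-60 windows against distance from the annotated 5′ end in bp, with 1 line per peak list, circle size growing with rank in the list, and the gene model below (dark, coding; light, untranslated). In ceh-38 all 5 lists have a summit within 47 bp of the pooled summit at the 5′ end, and in ceh-60 the 3 replicates and the pooled list have one near the stop codon.

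The third strongest peak lay in ceh-18, a POU gene that acts in the gonad sheath and in oocyte maturation (chrX:3843367-3857797, minus strand). Its summit was in a coding exon 13277 bp from the 5′ end, with a signal of 19.8 and pooled rank 800. It was found in replicate 2 at rank 1898 and in replicate 3 at rank 2060, and replicate 1 had no summit within 100 bp. The strongest replicate 1 summit of the gene, at rank 907, lay at 13094 bp, 183 bp away from the pooled summit. The ceh-18 summit fell 2 bp from the codons of the homeodomain helix pattern. Of 38 members with both the pattern and a pooled peak, ceh-18 was the only one with a summit within 100 bp of it, and 10 had one within 500 bp.

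The Hox genes held no pooled peak with a signal above 15 and no peak among the 1000 strongest of any replicate. Both are uncommon over all genes. A signal above 15 was reached by 15.05% of genes with a peak. Of all genes, 4.07%, 4.05% and 3.9% had a peak among the 1000 strongest of replicates 1, 2 and 3. For 0 of 6 genes the interval is 0 to 45.9%, which holds these replicate shares. Of the 6, nob-1, mab-5, ceh-13 and php-3 held a pooled peak, and egl-5 and lin-39 did not. For nob-1, a posterior Hox gene, the strongest signal was 14.1, in an intron 1933 bp from the 5′ end. It was at rank 29035 in replicate 1 and 7869 in replicate 2, with no summit within 100 bp in replicate 3. The strongest replicate 3 summit of nob-1, at rank 7888, lay at 1811 bp. For mab-5, which patterns the posterior body, the strongest pooled signal was 11.6 in an intron, found at rank 21602 in replicate 3. A mab-5 summit 865 bp upstream had 10.9 and rank 2276 in replicate 3. For ceh-13, the anterior Hox gene, the strongest was 10.2, at 6 bp from the 5′ end and found at rank 16518 in replicate 3. For php-3, the neighbour of nob-1, it was 8.69, at 2652 bp from the 5′ end and found in no replicate. Further than 100 bp from it, replicate 2 had a summit at 2475 bp with rank 1348. Replicate 1 had one at 2761 bp with rank 27334.

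Of the Hox genes without a pooled peak, lin-39, which acts in the mid-body and in vulval precursor cells, had 3 summits in each replicate list. Their best ranks were 7787, 8871 and 8020, and they lay at different places, from 146 bp upstream in replicate 3 to 7334 bp inside the gene. The posterior gene egl-5 had 1 summit, in replicate 2 at rank 7363. The span from lin-39 to ceh-23 (chrIII:7528641-7841491), which holds 4 Hox genes among 46 protein-coding genes, had 95 pooled summits, 0.304 per kb beside 0.272 over chromosome III, and 0 final-set peaks. Its strongest pooled peak had a signal of 25.98 at rank 277 and did not lie in a homeobox window. The span from php-3 to nob-1 had 3 pooled summits and 0 final-set peaks.

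The other ANTP class genes held pooled peaks in 14 of 18 windows (77.8%, interval 52.4 to 93.6%, beside 57.9% of all genes). Their median strongest signal was 10.1. The interval of every class given here and below also held the share of all genes, at its widest 0.84 to 90.6% for LIM. The class counts are therefore not read as differences between classes. The highest was ceh-43, a Distal-less type gene, with 14.7 in an intron 558 bp from the 5′ end. It was at rank 371 in replicate 3, with no summit within 100 bp in replicates 1 and 2. Further off, replicate 1 had a summit at 415 bp from the 5′ end, at rank 5437. Replicate 2 had one at 302 bp, at rank 8270. A further ceh-43 summit 97 bp upstream had a pooled signal of 7.57 and was also found in replicate 3 alone, at rank 785. The gene ceh-23 had 13.95 in a coding exon, at rank 11101 in replicate 1 and 3536 in replicate 3. For cog-1, an Nkx6 type gene that acts in the vulva and in taste neurons, the signal was 13.1 in an intron, at ranks 9311 and 9880 in replicates 1 and 3. Lower values were 11.9 in ceh-30, a Bar type gene, 10.9 in ceh-16, the engrailed gene, 10.3 in vab-7, the even-skipped type gene, and 7.45 in pal-1, the caudal type gene. Of these 4, vab-7 was found in replicate 3, pal-1 in replicate 2 at rank 21324, and ceh-30 and ceh-16 in no replicate.

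**Figure D4:**
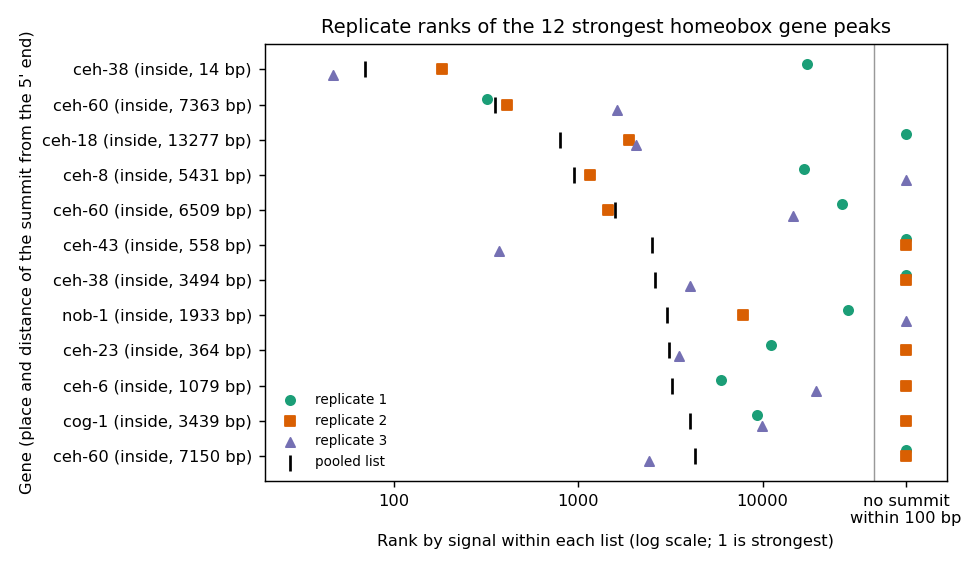
Rank by signal in each list (log scale, 1 is strongest) of the 12 pooled homeobox peaks with the strongest signal, with the distance of each summit from the 5′ end of its gene. Points right of the vertical line are replicates with no summit within 100 bp, and all 3 replicates have a summit at 3 of the 12 peaks, the strongest of ceh-38 and 2 in ceh-60.

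In the paired-like class 6 of 10 held a pooled peak, with a median strongest signal of 9.999. The highest was ceh-8, a retinal homeobox type gene, with 18.9 at pooled rank 953. It was at rank 1158 in replicate 2 and 16778 in replicate 1, and its summit lay 12 bp before the end of the gene, 554 bp from the 5′ end of the collagen gene col-63, which is nearer than that of ceh-8. For unc-42, which acts in command interneurons and motor neurons, the strongest signal was 10.9 in an intron, at rank 824 in replicate 2 and 26010 in replicate 1. For ceh-53 it was 11.2, found in no replicate. The motor neuron gene unc-4 held no pooled peak, and its best replicate ranks were 11369 in replicate 1 and 15884 in replicate 3.

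The POU class held a pooled peak in 2 of 3 genes. These were ceh-18 and ceh-6, which acts in the excretory cell and had a strongest signal of 13.8 with ranks of 5917 and 19408 in replicates 1 and 3. The third, unc-86, which specifies touch and other sensory neurons, had none, and its best replicate ranks were 9661 in replicate 1 and 29643 in replicate 3. Of the LIM class 1 of 3 held a pooled peak, ceh-14 at 7.87. The touch neuron gene mec-3 had a replicate 1 summit alone at rank 24750, and ttx-3, which acts in the AIY interneuron, had best ranks of 27317 in replicate 1 and 14042 in replicate 3. In the sine oculis class 2 of 3 held one. Of these ceh-32 had 5 pooled summits, the most of any member, with a strongest signal of 12.04 found at rank 6009 in replicate 2 and 9847 in replicate 3.

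In the CUT class the high value belonged to ceh-38 alone. Of the 6 CUT genes used here 5 held a pooled peak, with signals of 40.5 in ceh-38, 8.54 in ceh-39, 7.37 in ceh-49, 7.28 in ceh-48 and 7.23 in ceh-21. The gene ceh-41 held none and had best ranks of 25108 in replicate 1 and 7107 in replicate 2. Apart from ceh-38 the class thus lay below the genome median of 10.4. The TALE class was similar, with 24.4 in ceh-60, 7.44 in ceh-20, the partner of Hox proteins, and 7.14 in ceh-40. The 24 members put in no class held pooled peaks in 16 windows with a median of 8.76, and the highest were 12.7 in ceh-81, 11.8 in ceh-79, 11.8 in ceh-100, 11.2 in ceh-7 and 10.8 in ceh-90. The ceh-7 summit lay nearer to the 5′ end of prx-5, at 191 bp. No summit of any list lay in the windows of 4 of the 76 members, ceh-28, ceh-58, ceh-84 and ceh-86. The same held for 2503 of 19973 nuclear protein-coding genes, so empty windows were not particular to the family.

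The family was described by chromosome, since 19 of the 76 genes are on X. On X 12 of 19 held a pooled peak (63.2% beside 63.1% of all X genes), and on the autosomes 41 of 57 did (71.9% beside 57.1% of all autosomal genes). Per kb of window the X members had 0.178 pooled summits beside 0.286 for all X genes, and the autosomal members 0.260 beside 0.263. The lower pooled density of the X members was smaller in the replicate lists, at 0.303, 0.199 and 0.335 per kb beside 0.346, 0.255 and 0.337 for all X genes. The median strongest signal was 8.21 in X members and 10.004 in autosomal members, beside 10.7 and 10.4 for all genes of those chromosomes.

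The 85 homeobox summits were placed in the gene models. Upstream of the gene lay 21 (24.7%), in exons 32 (37.6%) and in introns 32 (37.6%). These parts made up 21.3%, 28.7% and 49.997% of the homeobox window length. Introns therefore held fewer summits per kb, 0.179, than exons, 0.311, or upstream sequence, 0.276. Over all genes the order differed slightly, with 0.228 in introns, 0.283 in exons and 0.306 upstream. Of the 85 summits, 10 also lay in the window of another protein-coding gene, and 4 were nearer to another gene's 5′ end.

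By replicate support the homeobox summits resembled those of all genes. Of the 85, 28 were found in no replicate (32.9%, beside 25.8% of summits in any protein-coding window), 38 in 1 (44.7% beside 52.2%), 16 in 2 (18.8% beside 19.5%) and 3 in all 3 (3.53% beside 2.53%). Of the nuclear final-set peaks 53.1% were found in all 3. Between replicate lists, without the pooled list, 8 of 96 replicate 1 summits in homeobox windows had a replicate 2 summit within 100 bp (8.33% beside 8.07% over all genes), and 12 of 96 had a replicate 3 summit (12.5% beside 12.1%). Of 69 replicate 2 summits 14 had a replicate 3 summit (20.3% beside 14.98%). Counted by genes, a summit shared by replicates 1 and 2 lay in 6 homeobox windows (7.89% beside 9.69% of all genes). One shared by replicates 1 and 3 lay in 10 (13.2% beside 13.7%) and one shared by replicates 2 and 3 in 12 (15.8% beside 13.003%).

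Sequence under the summits was searched for 6 motifs within 50 bp on each side, on both strands, and a match is a description of letters and not a site. TAATTA, a core that many homeodomains recognise, was at 7 of 85 homeobox summits (8.24%), beside 4.15% of all nuclear pooled summits and 1.36% of nuclear final-set summits. ATCGAT and ATCAAT, forms bound by CUT class proteins, were at 1 (1.18%) and 11 (12.9%), beside 3.37% and 10.3% of all nuclear pooled summits. The AT-rich AAATTT was at 13 (15.3%) beside 19.96%. GAGAGA and CCTGCG, chosen because earlier results of these data had shown them under final-set peaks, were at 5 (5.88%) and 1 (1.18%) of the homeobox summits, beside 8.57% and 1.41% of all nuclear pooled summits and 23.8% and 12.9% of nuclear final-set summits. None of the 6 was within 50 bp of the strongest summits of ceh-38, ceh-60 and ceh-18. GC content within 100 bp was 37.5% ± 6.88 (SD, n = 85 summits) in the family and 37.8% ± 7.13 over the summits in any protein-coding window.

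Genes outside the naming rule gave a comparison. A list of 24 other homeobox genes, with a median window of 5966 bp, held pooled peaks in 22 windows (91.7% beside 57.9% of all genes). Of all genes in the longest quartile of window length, 4634 bp and above, 81.8% held one. Final-set peaks lay in 0 of the 24 windows (interval 0 to 14.2%, beside 0.596%). Per kb of window they had 0.343 pooled summits, beside 0.238 in the 76 members and 0.266 over all genes. The lower pooled density of the members was thus not shared by these genes. In the replicate lists they had 0.272, 0.236 and 0.343 per kb, beside 0.316, 0.236 and 0.320 over all genes. Their strongest signals were 14.9 in irx-1, an Iroquois gene, 14.3 in unc-62, the Meis type partner of PBX proteins, 13.4 in zfh-2, a zinc finger homeobox gene, and 12.7 in psa-3, also of the Meis type. The window of unc-62 held 13 pooled summits and that of zfh-2 held 11. Nuclear hormone receptor genes, another large transcription factor family of the worm, held pooled peaks in 153 of 269 windows (56.9% beside 57.9% of all genes). They held final-set peaks in 2 (0.743% beside 0.596%) and peaks found in all 3 replicates in 9 (3.35% beside 2.79%). Their median strongest signal was 10.2, and the homeobox value was 9.06.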

How the data were processed

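ATTF-4 ChIP-seq was deposited as peak lists on ce11 for 3 biological replicates in 5 libraries. Per the file notes deposited with them, a replicate list was called on the alignment of that biological replicate against a control, and the pooled list on the 3 alignments together. The final set was derived from those lists. The authors deposited for each peak a signal, on a scale that no header states, and a −log10 q-value. Sources used here do not give aligner, caller or settings. No read counts are held, so depth is unknown.

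Summits were assigned to windows of Ensembl release 115 genes, from 1000 bp upstream of the 5′ end to the gene end. Ranks are by signal within a list. A replicate matched a peak where summits lay within 100 bp. Families were described by counts beside all nuclear protein-coding genes, with no test. Named were every member with a final-set peak, the 20 members with the strongest pooled signal, the 14 best known members, the CUT class, and 4 other homeobox genes. Members named for a rank among the 1000 strongest of a replicate, for a place in no list or as comparison within a class were chosen after their values were seen. Members, classes and motifs were chosen with earlier results of these data known. The assignment of summits was tested on simulated positions. The software was pyfaidx 0.9.0.4, pandas 2.3.3, numpy 2.4.6, scipy 1.17.1 and matplotlib 3.10.9 under Python 3.11.15.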

Additional observations from a re-analysis of the deposited data

How the results depend on the processing

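The count of homeobox genes with a final-set peak was 1 under the 6 alternatives that apply to it. The count with a pooled peak, 53, was 26 with windows of the promoter alone, 25 with the stronger 50% of the pooled list and 1 with peaks of the highest q-value. The count with a pooled peak found in all replicates, 2, was 1 with promoter windows and 1 at the highest q-value. On the autosomes it was 1 of 57 (1.75% beside 2.65% of all autosomal genes). It was 8 with summits within 200 bp, 12 with any shared base and 0 with the 1000 strongest peaks per replicate. It was 5 to 9 when a replicate was left out. The count with a peak in every replicate list, 28 of 76, was 7 with promoter windows and 0 with the 1000 strongest peaks. It was 34 to 41 when a replicate was left out. With the other homeobox genes added it was 43 of 100 genes. Pooled summits per kb, 0.238, were 0.0867 with the stronger 50% and 0.0028 at the highest q-value. With the other homeobox genes added they were 0.275, above the 0.266 of all genes. These settings change the peaks, windows, genes, matching distance or number of replicates that enter a count, so such counts move by construction. Most were not computed over all genes, so whether the family moved differently from the genome was not tested. No paired analysis was possible because there was 1 group. Without read counts, sites below the reach of these libraries cannot be told from absent ones, and replicate 1 has 1 library where the others have 2.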
